A study of Mus musculus with 2 samples.

Results

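The extracellular matrix genes described here are 35 genes chosen by symbol, each found in the 33456-gene table that both libraries share. They comprise 6 fibrillar collagens, 5 basement membrane genes, 7 beaded, fibril-associated and other collagens, 6 fibronectin and elastic fibre genes, 3 lysyl oxidases, 5 proteoglycan and link protein genes and 3 matricellular genes. They were counted in 10x Genomics 5′ single-cell libraries of mouse yolk sac, 1 from Baf155 CKO mice and 1 from wild-type (WT) mice, both of strain B6. Baf155 is the product of Smarcc1 and a scaffold of BAF, the mammalian SWI/SNF complex that moves nucleosomes. The sources used here give neither the Cre driver, nor the deleted exon, nor the number of embryos. Each library mixed embryos of 2 stages in equal numbers, E9.5 and E10.5, and holds live cells left after collagenase, freezing and removal of Ter119-positive erythroid cells, although the labels call the material nuclei. With 1 library per genotype there is no replicate and no test. Bracketed ranges are 95% counting intervals, which leave out every other source of error, and genotype cannot be told apart from differences between embryos, sorts or libraries.

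Matrix is laid down in layers that differ in makeup. Fibrillar collagens form the banded fibres of connective tissue, with small leucine-rich proteoglycans on their surface and lysyl oxidases that crosslink them. Type IV collagen, laminin and nidogen form the basement membrane beneath endothelium and epithelium, and fibronectin, fibrillins and their partners form a looser network in which vessels are assembled. In the yolk sac, blood and endothelium lie between a mesothelial layer and the visceral endoderm, with mesenchyme around the vessels.

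Cells were assigned by markers, none of which is a matrix gene of this set. Of 841 CKO and 784 WT cells kept, 267 and 245 passed the stromal gate, 32 and 49 the endothelial gate, 472 and 398 the blood gate, and 7 and 31 the visceral endoderm gate. The library totals were 27314411 UMIs in CKO and 24538853 UMIs in WT, and 1 cell barcode was common to both. Stromal cells were split by markers in a fixed order with Wnt2 stroma first, so that this gate also takes cells with Acta2 or Upk markers. Wnt2 stroma (Wnt2, Nkain4 and Prss35) held 146 CKO and 32 WT cells, Acta2 stroma 32 and 60, Upk stroma (Upk3b and Upk1b) 35 and 89, and the remaining stroma 43 and 45, while 11 and 19 cells passed both the Acta2 and the Upk gate. Mesothelium and smooth muscle names were not used, because the markers of each list did not go together. Msln and Muc16 had no UMI in stromal cells of either library, while Lrrn4 had 6.82 CPM in CKO and 6.25 CPM in WT Upk stroma. Myocd, Myh11 and Cnn1 stood at 8.89 CPM or less in stroma as a whole. In Acta2 stroma Cnn1 had 6.49 CPM in CKO and 28.8 CPM in WT, Actg2 106 and 495 CPM, and Des 57.5 and 110 CPM, but these genes also set that gate. Smarcc1 stood at 32.8 CPM in CKO stroma and 101 CPM in WT stroma (ratio 0.324), at 5.85 and 74.7 CPM in endothelium, and at 20.8 and 97.0 CPM in blood. CPM is UMIs per 1000000 UMIs of the gated cells, and no length scaling was applied because a 5′ UMI tags the end of a transcript.

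Most of the matrix genes belonged to the stroma. Their UMIs together made up 1.78% of all UMIs in CKO stroma and 1.44% in WT stroma. Of the 35 genes, 34 had at least 20 UMIs over all cells, and 24 of these stood at least 2-fold higher in stroma than in endothelium, blood and visceral endoderm in both libraries, against 4.57% of all genes with that many UMIs. Col4a1 and Col4a2, the chains of the main type IV collagen, were the exceptions at the other end: both stood at least 2-fold higher in endothelium than in the other gates, a pattern held by 4.5% of all genes. Nid1 and the fibril-associated collagen Col14a1 were also highest in endothelium in both libraries, by less than 2-fold in at least 1 library. Eln, the elastin gene, had 0 UMIs in CKO and 1 UMI in WT stromal cells.

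**Figure D1:**
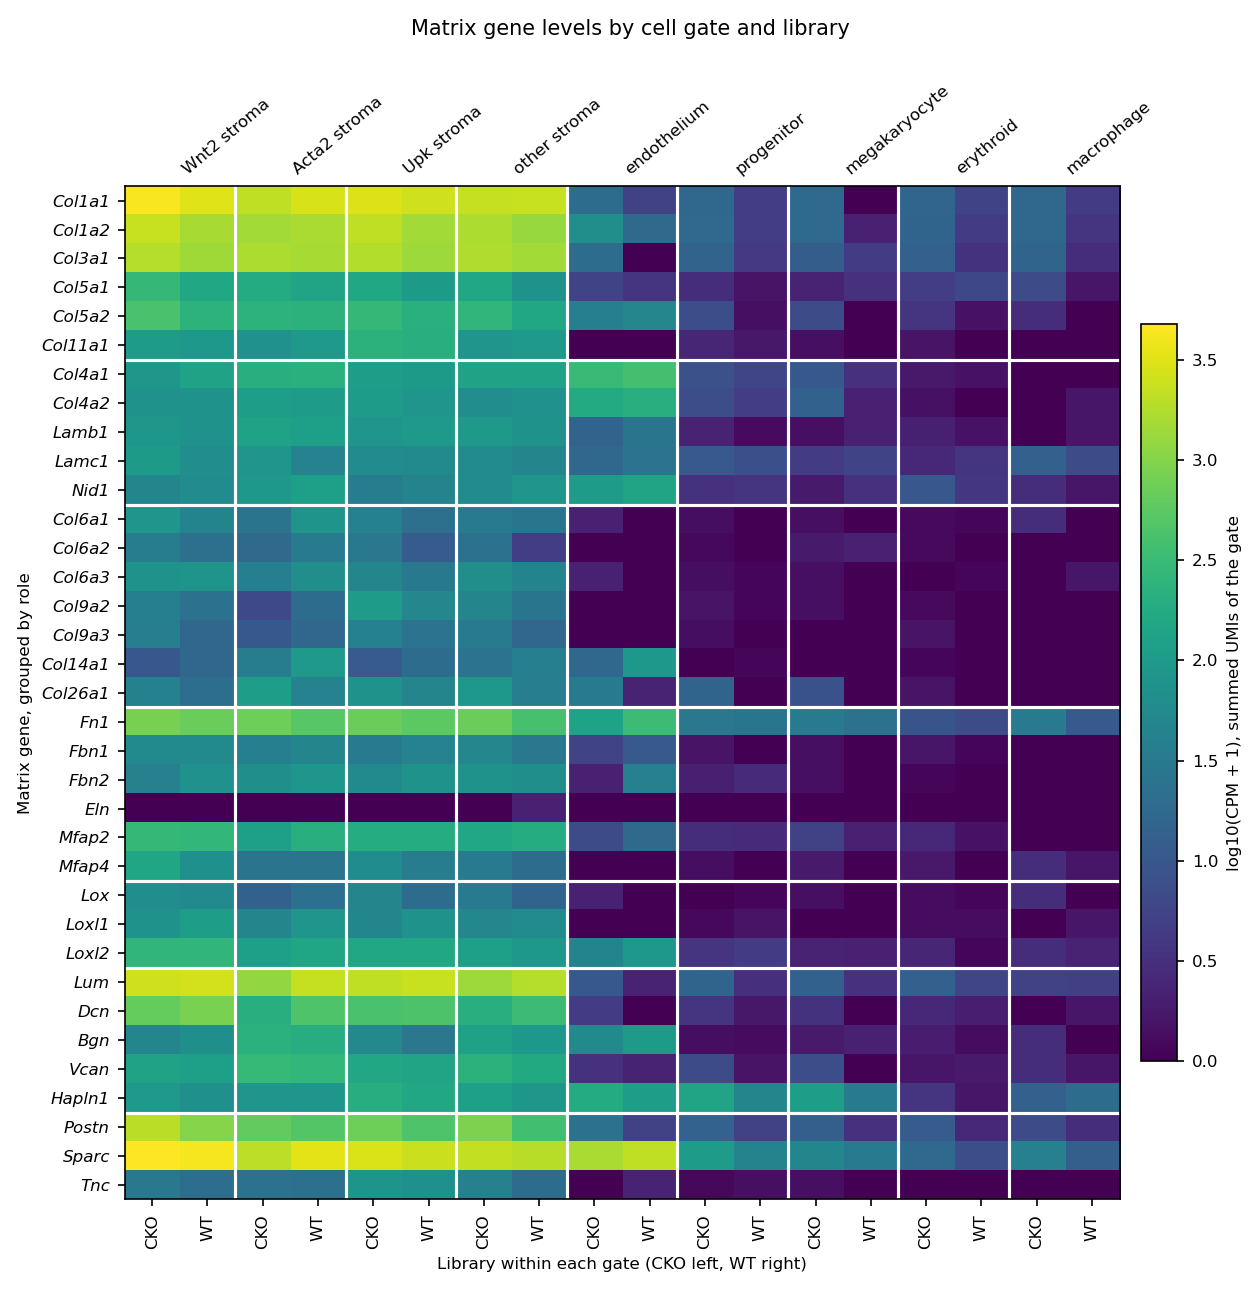
Level of each of the 35 matrix genes (rows, grouped by role) in 9 cell gates, with the CKO library left of the WT library in each pair; colour is log10(CPM + 1) of the summed UMIs. The stromal columns are bright for Col1a1, Col1a2, Col3a1, Lum, Postn and Sparc, the endothelial columns for Col4a1, Col4a2, Nid1 and Sparc, and the progenitor and megakaryocyte columns for Hapln1, at 138 and 111 CPM in CKO cells and 45.8 and 32.7 CPM in WT cells.

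The summed matrix level was 17797 CPM in CKO stroma and 14437 CPM in WT stroma, a ratio of 1.23 (1.22 to 1.24). In single stromal cells the median was 18776 CPM in CKO and 13648 CPM in WT, and all cells ran from 752 to 65871 CPM in CKO and from 374 to 72467 CPM in WT, so that the cells of the 2 libraries overlapped widely. The 2 libraries filled the stromal gates unequally, and the ratio was 1.09 when the stromal gates were weighted equally. Endothelium had a lower sum, 2878 CPM in CKO and 3739 CPM in WT.

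**Figure D2:**
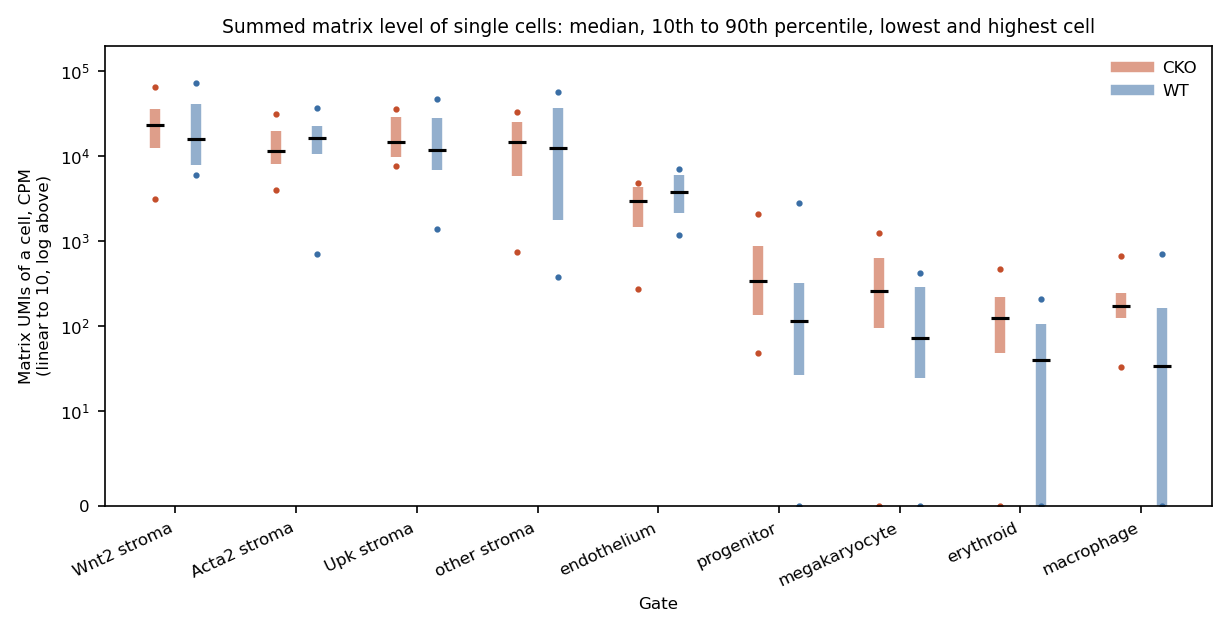
Summed matrix level of single cells in 9 gates, CKO left of WT; the black bar is the median, the thick line runs from the 10th to the 90th percentile of cells, and dots mark the lowest and highest cell (scale linear to 10 CPM and logarithmic above). Medians of the stromal gates lie between 11386 and 23391 CPM, those of endothelium at 2932 CPM in CKO and 3746 CPM in WT, and those of the blood gates at 336 CPM or less.

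The fibrillar collagens were the largest group, with 43.8% of matrix UMIs in CKO stroma and 42.1% in WT stroma. Col1a1 and Col1a2 encode the chains of type I collagen, Col3a1 that of type III, and Col5a1, Col5a2 and Col11a1 the minor chains that start and size the fibril. Col1a1 (chr11:94936224-94953042, plus strand, GRCm38) had 3354 CPM in CKO stroma, against 2657 CPM in WT stroma, a ratio of 1.26 (1.24 to 1.29). Col1a2 had 2002 and 1483 CPM (1.35), and Col3a1 had 1775 and 1465 CPM (1.21). Among the minor chains, Col5a1 stood at 218 CPM in CKO and 116 CPM in WT, a ratio of 1.88 (1.71 to 2.06), and Col5a2 at 335 and 210 CPM (1.59). Col11a1 stood at 114 CPM in CKO and 141 CPM in WT over stroma as a whole (0.806, 0.730 to 0.891), but its ratio was 1.16 in Wnt2 stroma, 0.737 in Acta2 stroma, 1.15 in Upk stroma and 0.842 in the remaining stroma, and the interval held 1 in each of these gates but Acta2 stroma. Col5a1, Col5a2 and Col3a1 were higher in CKO in each of the 4 stromal gates and in both Xist-positive and Y-positive cells, although the Col5a2 interval held 1 in Acta2 stroma. Col1a1 was not. Its ratio was 1.39 in Wnt2 stroma, 0.731 in Acta2 stroma, 1.19 in Upk stroma and 0.983 in the remaining stroma.

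The Col1a1 to Col1a2 UMI ratio was 1.67 (1.64 to 1.71) in CKO stroma and 1.79 (1.75 to 1.84) in WT stroma. In CKO endothelium, with 16 Col1a1 and 55 Col1a2 UMIs, it was 0.291 (0.156 to 0.515). In CKO blood it was 0.958 (0.809 to 1.13), below the CKO stromal value as well. In WT blood it was 1.22 (0.826 to 1.81), an interval that held the WT stromal value. Across stromal cells Col1a1 and Col1a2 had the highest rank correlation of the 171 pairs among 19 matrix genes with at least 500 stromal UMIs, with a Spearman rho of 0.82 over 267 CKO cells and 0.77 over 245 WT cells. The median pair had 0.19 and 0.28. The level of Col1a1 itself correlated with UMI depth at -0.53 in CKO and -0.23 in WT, and cells of one library share their preparation, so these values describe the cells and are not tests.

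Stretches of 150 bases before the annotated start are shown for the 3 fibrillar members whose RefSeq and GENCODE starts were the same base. They are from RefSeq on GRCm38.p6, all on the plus strand. GC content was 37.3% for Col3a1, 74.7% for Col5a1 and 64.7% for Col11a1, against a median of 54% over all promoters of this length. Capitals mark the CCAAT box letters (CCAAT, or ATTGG on the other strand) and the GC box letters GGGCGG, searched on both strands.
Col3a1, chr1:45311388-45311537: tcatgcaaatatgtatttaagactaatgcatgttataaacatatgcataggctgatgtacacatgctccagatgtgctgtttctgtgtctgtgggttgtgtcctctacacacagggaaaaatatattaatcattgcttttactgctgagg
Col5a1, chr2:27886275-27886424: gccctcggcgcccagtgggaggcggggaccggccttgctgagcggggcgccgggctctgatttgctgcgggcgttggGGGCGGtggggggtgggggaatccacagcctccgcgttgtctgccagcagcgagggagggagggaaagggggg
Col11a1, chr3:114030390-114030539: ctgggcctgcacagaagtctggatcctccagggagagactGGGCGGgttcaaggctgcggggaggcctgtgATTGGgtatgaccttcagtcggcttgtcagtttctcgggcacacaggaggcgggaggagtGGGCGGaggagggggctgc

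Col3a1 had neither motif in this window, Col5a1 had GGGCGG once, and Col11a1 had ATTGG once and GGGCGG at 2 places. In windows of this length over all genes, 25.3% held CCAAT and 29.0% held GGGCGG on either strand. In the 250 bases before the start, which RefSeq gave for 20 of the 35 genes, 7 of the 20 held CCAAT (34.5% of all promoters) and 13 held GGGCGG (32.9% of all promoters). For some of the 20, such as Col1a2 and Postn, the RefSeq start was not the GENCODE start. None of the 20 held TATAA between 40 and 20 bases before the start, where 3.69% of all promoters had it. A match is a run of letters and not a binding site.

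The basement membrane genes made up 2.48% of matrix UMIs in CKO stroma but 21.2% in CKO endothelium, and 3.08% and 21.0% in WT. Col4a1 had 298 CPM in CKO and 388 CPM in WT endothelium, and 121 CPM in CKO and 145 CPM in WT stroma. Col4a2 had 177 and 210 CPM in endothelium and 84.8 and 86.4 CPM in stroma. Their starts lie 21 bases apart on opposite strands of chromosome 8, with 22 bases common to both annotated genes, and the Col4a1 to Col4a2 UMI ratio was 1.69 in CKO and 1.85 in WT endothelium. Nid1, which encodes the linker nidogen 1 between laminin and type IV collagen, had 54.8 CPM in CKO and 70.1 CPM in WT stroma (0.781, 0.676 to 0.902) and was lower in CKO in all 4 stromal gates. Among these gates, its interval lay below 1 only in Acta2 stroma. Of the laminin chains, Lamb1 had 96.9 and 93.9 CPM (1.03), while Lamc1 had 83.9 CPM in CKO and 50.1 CPM in WT stroma (1.67, 1.45 to 1.94), so that the Lamc1 to Lamb1 UMI ratio was 0.865 in CKO and 0.534 in WT stroma. Among the stromal gates the group was highest in Acta2 stroma, with 622 CPM in CKO and 597 CPM in WT, and the other 3 gates had 377 to 407 CPM in both libraries.

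The beaded, fibril-associated and other collagens were sparse. The summed level of the 7 genes was 300 CPM in CKO and 241 CPM in WT stroma. Col6a1, Col6a2 and Col6a3, the chains of the beaded type VI filament, had 57.3, 27.5 and 62.8 CPM in CKO stroma and 40.5, 16.2 and 48.4 CPM in WT stroma, with ratios of 1.41, 1.69 and 1.30. In Acta2 stroma all 3 chains were instead lower in CKO, with ratios of 0.315, 0.573 and 0.578. Col9a2 and Col9a3, chains of the fibril-associated type IX collagen of cartilage, were highest in Upk stroma, where Col9a2 had 106 CPM in CKO and 48.6 CPM in WT. Col14a1 (chr15:55307750-55520803, plus strand), another fibril-associated collagen, had 15.5 CPM in CKO and 41.6 CPM in WT stroma, a ratio of 0.372 (0.292 to 0.471). Its levels were highest in Acta2 stroma, at 34.3 CPM in CKO and 97.0 CPM in WT, and it was lower in CKO in all 4 stromal gates and in both Xist-positive (0.591) and Y-positive (0.274) cells. In Wnt2 stroma, Upk stroma and the remaining stroma, however, the Col14a1 interval held 1. Col26a1 (chr5:136741759-136883209, minus strand), an EMI-domain collagen, had 65.8 CPM in CKO and 39.5 CPM in WT stroma (1.67, 1.42 to 1.96) and was higher in CKO in all 4 stromal gates, by 1.66 in Upk stroma to 2.64 in Acta2 stroma.

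Fibronectin, the product of Fn1, led the next group with 760 CPM in CKO and 542 CPM in WT stroma, a ratio of 1.40 (1.34 to 1.46), and its ratio lay between 1.20 and 1.70 in the 4 stromal gates. Of the fibrillin genes, which encode the microfibril backbone, Fbn1 had 48.2 CPM in CKO and 43.1 CPM in WT stroma, and its interval held 1 (1.12, 0.946 to 1.33). Fbn2 had 52.9 CPM in CKO and 78.8 CPM in WT stroma (0.671, 0.583 to 0.773). Mfap2, a microfibril-associated glycoprotein, had 217 and 203 CPM (1.07). Mfap4 (chr11:61485431-61488900, plus strand), a fibril-associated glycoprotein of elastic fibres, had 91.8 CPM in CKO and 34.9 CPM in WT stroma, a ratio of 2.63 (2.24 to 3.10). Its level was highest in Wnt2 stroma, at 149 CPM in CKO and 68.5 CPM in WT. In Acta2 stroma it stood at 25.1 CPM in CKO and 25.4 CPM in WT. Among stromal cells the ratio came to 1.62 with Xist and to 4.23 with Y-linked RNA.

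Lysyl oxidases start the crosslinking of collagen and elastin. Loxl2 had 194 CPM in CKO and 155 CPM in WT stroma (1.25), Loxl1 62.8 and 78.2 CPM (0.803, 0.702 to 0.920), and Lox 45.7 and 24.1 CPM (1.89, 1.55 to 2.33). Loxl1 was lower in CKO in all 4 stromal gates, but its interval held 1 in the remaining stroma. The Lox ratio was 1.16 in Wnt2 stroma, 0.626 in Acta2 stroma, 2.42 in Upk stroma and 2.17 in the remaining stroma, and the intervals of the first 2 held 1. One WT stromal cell held 9.93% of the WT Lox UMIs.

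Lum and Dcn encode the small leucine-rich proteoglycans lumican and decorin. Over stroma as a whole they were nearly level between the libraries, but both were lower in CKO in each of the 4 stromal gates. Their ratios there ran from 0.529 to 0.968 for Lum and from 0.430 to 0.948 for Dcn. The interval held 1 for Lum in Wnt2 stroma and for Dcn in Upk stroma. Lum had 2050 CPM in CKO and 2251 CPM in WT stroma (0.910, 0.889 to 0.933), and Dcn had 444 and 488 CPM (0.910, 0.864 to 0.958). They neighbour each other on chromosome 10 with no protein-coding gene between them, and the Lum to Dcn UMI ratio over stroma as a whole was 4.61 in both libraries. Within gates it differed, at 4.10 (3.90 to 4.30) in CKO and 3.10 (2.84 to 3.39) in WT Wnt2 stroma, and at 5.98 (5.18 to 6.94) and 4.86 (4.48 to 5.28) in Acta2 stroma. Lum was 0.736 within Xist-positive cells and 1.00 within Y-positive cells, so its direction was not common to both. In Acta2 stroma Lum had 1204 CPM in CKO and 2276 CPM in WT (0.529), and Dcn 201 and 468 CPM (0.430). Bgn, which encodes biglycan, had 90.3 and 87.7 CPM in stroma (1.03), Vcan, which encodes the hyaluronan-binding proteoglycan versican, 181 and 180 CPM (1.01), and Hapln1, the link protein that fixes versican to hyaluronan, 112 and 114 CPM (0.990). All 3 were above 1 in Xist-positive cells, at 1.44, 1.24 and 1.23, and below 1 in Y-positive cells, at 0.719, 0.801 and 0.783.

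The matricellular genes encode secreted proteins that bind collagen and cells without forming fibres. Postn (chr3:54361109-54391037, plus strand), which encodes periostin, had 1356 CPM in CKO and 525 CPM in WT stroma, a ratio of 2.58 (2.48 to 2.69). Wnt2 stroma had 2004 CPM in CKO and 1009 CPM in WT, Acta2 stroma 613 and 492 CPM, Upk stroma 731 and 454 CPM, and the remaining stroma 893 and 367 CPM. Postn was thus higher in CKO in all 4 gates, by 1.25 to 2.43, and was highest in the gate that held 146 CKO cells and 32 WT cells. With the stromal gates weighted equally its ratio was 1.83. Sparc (chr11:55394500-55423183, minus strand), the collagen-binding protein also called osteonectin, was the most abundant of the 35 genes, with 3513 CPM in CKO and 2832 CPM in WT stroma (1.24). Tnc, which encodes tenascin C, had 37.0 and 40.4 CPM (0.917, 0.764 to 1.10) and was highest in Upk stroma.

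Counted over the set, 34 of the 35 genes had at least 20 UMIs in stroma. Postn and Mfap4 were at least 2-fold higher in CKO, where 5.79% of all genes with that many UMIs were, and Col14a1 was at least 2-fold lower, where 3.9% were. The intervals of 17 genes lay above 1 and those of 8 genes below 1, and the median ratio was 1.20. No such count of intervals was made over all genes, so it is not read as particular to the set. Over all genes the median log2 ratio was -0.02, and over the 34 it was 0.27. Across the 4 stromal gates and the Xist-positive and Y-positive parts, Col3a1, Col5a1, Col5a2, Lamc1, Col26a1, Fn1 and Postn were above 1 in all 6, and Nid1, Col14a1 and Loxl1 were below 1 in all 6. This tally takes the side of 1 alone and not the intervals. In the remaining stroma the intervals of Lamc1, Nid1, Col14a1 and Loxl1 held 1. In Xist-positive cells Nid1 was 0.992 (0.791 to 1.25). The gates and the Xist and Y parts divide the same cells, so the 6 are not independent, and all genes were not counted this way. Of the 34 genes, 11 lay on opposite sides of 1 in Xist-positive and Y-positive cells. The count of genes 2-fold higher was 5 when each cell was thinned to 10000 UMIs.

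**Figure D3:**
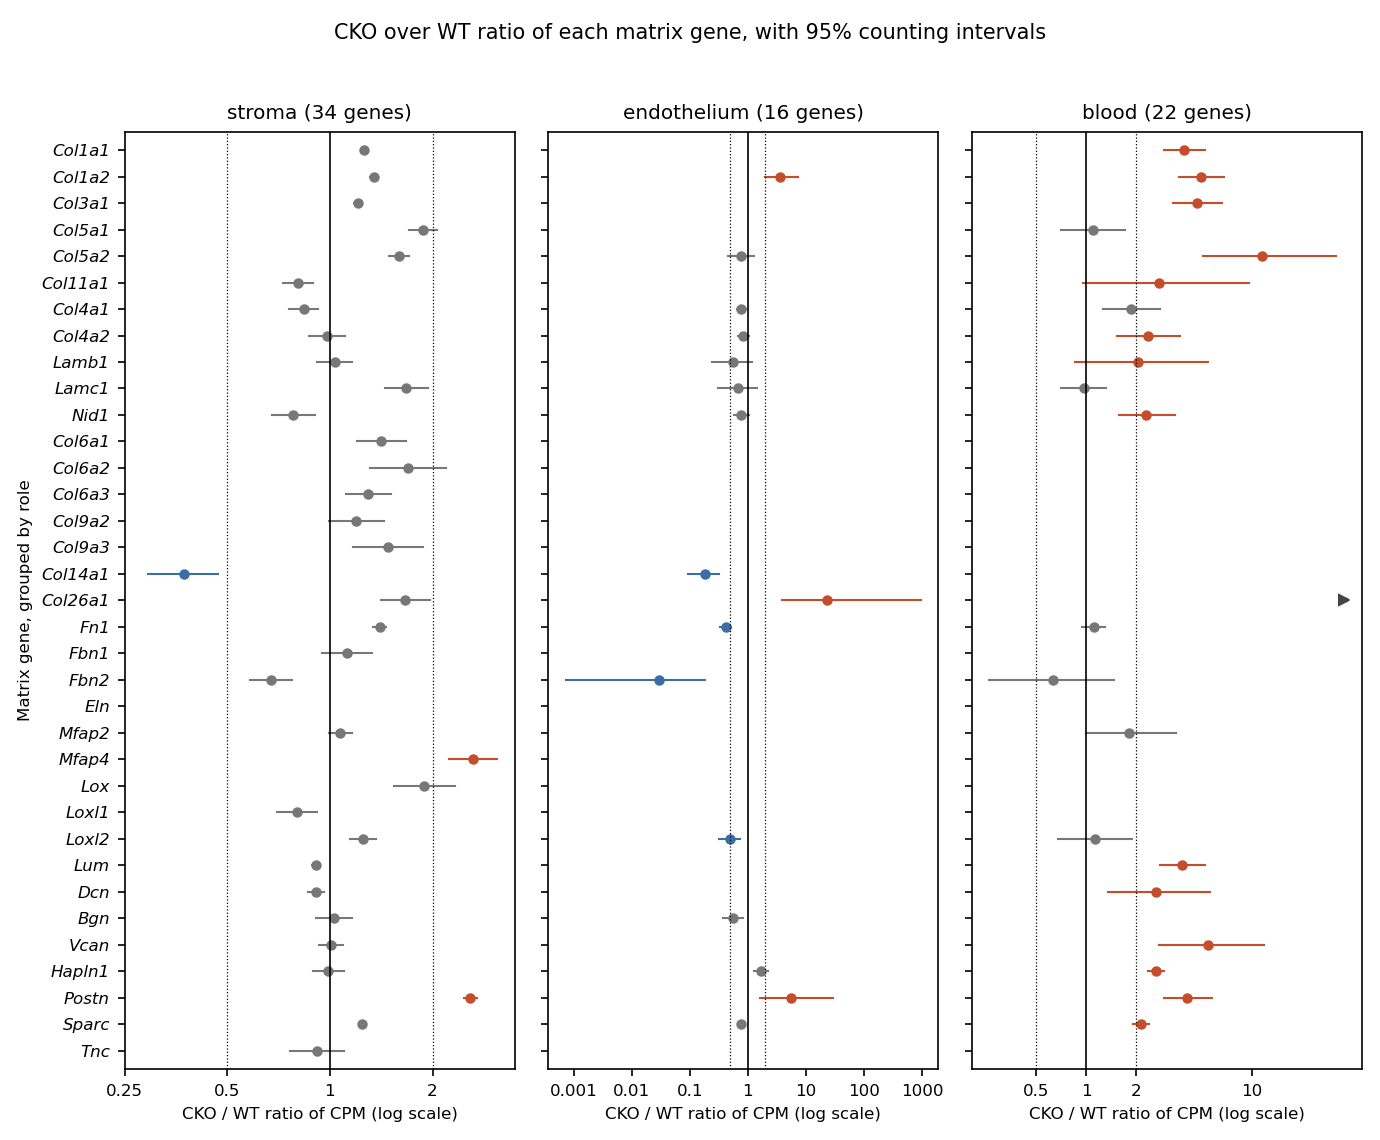
CKO over WT ratio of CPM for the matrix genes with at least 20 UMIs in stroma (34 genes), endothelium (16) and blood (22), on log axes, with 95% counting intervals; dotted lines mark 2-fold, red is at least 2-fold higher and blue at least 2-fold lower in CKO, and the arrowhead marks a lower bound for Col26a1, which had 0 UMIs in WT blood. Stromal ratios lie within 2-fold apart from Postn, Mfap4 and Col14a1, and most blood ratios lie to the right of 1.

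The stromal gates did not share a direction. The summed level in Wnt2 stroma was 22129 CPM in CKO and 17865 CPM in WT (1.24, 1.22 to 1.26), in Upk stroma 16432 and 13720 CPM (1.20), and in the remaining stroma 13235 and 11714 CPM (1.13). Acta2 stroma went the other way, with 12446 CPM in CKO and 15745 CPM in WT (0.790, 0.774 to 0.807). In Acta2 stroma 15 genes had intervals below 1 and 6 above 1, a count that was not made over all genes. Col26a1 was at least 2-fold higher and Col6a1, Col9a2, Col14a1 and Dcn at least 2-fold lower, against 4.51% and 5.57% of all genes. In Wnt2 stroma Mfap4 and Col9a3 (36.1 CPM in CKO, 15.2 CPM in WT) were at least 2-fold higher and none lower, against 8.85% and 5.69% of all genes. In Upk stroma Col6a2, Col9a2 and Lox were higher and none lower, against 3.61% and 5.42%. In the remaining stroma Col5a1, Col6a2, Col26a1, Lox, Postn and Tnc were higher and none lower, against 4.61% and 5.46%. Of the higher genes, 3 in the remaining stroma and 1 in Wnt2 stroma had fewer than 20 UMIs in WT. Of the lower genes in Acta2 stroma, 1 had fewer than 20 UMIs in CKO. Such genes owed their place in the counts to the library where they were high.

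**Figure D4:**
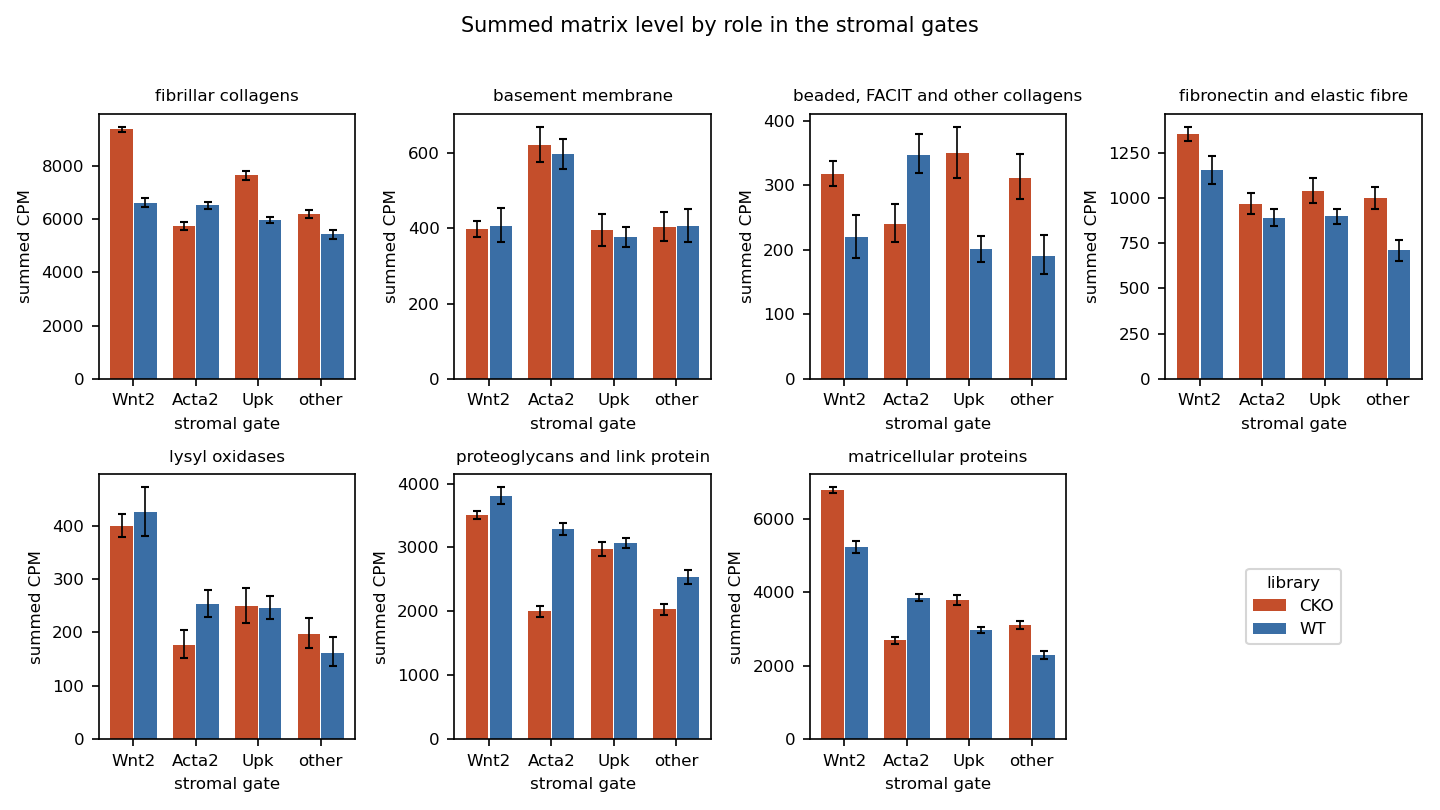
Summed CPM of each role group in 4 stromal gates, CKO bars left of WT bars, with 95% counting intervals. Fibrillar collagens and matricellular genes are tallest in CKO Wnt2 stroma (9366 and 6788 CPM), and basement membrane genes in Acta2 stroma. The proteoglycan and link protein sum is lower in CKO than in WT in all 4 gates, most in Acta2 stroma, but its interval held 1 in Upk stroma (0.969, 0.925 to 1.01). Within that group Lum and Dcn were below 1 in all 4 gates and Vcan above 1 in all 4. The interval held 1 for Lum in Wnt2 stroma and for Dcn in Upk stroma, and that of Vcan lay above 1 only in the remaining stroma.

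The same gate did not hold the same cells in both libraries. The smooth muscle list (8 genes) summed to 2378 CPM in CKO and 7677 CPM in WT within Wnt2 stroma, with 7 of its genes seen in each library, and to 4060 and 6196 CPM within Acta2 stroma. Acta2 itself stood at 1841 CPM in CKO and 5173 CPM in WT Wnt2 stroma, and at 3164 and 4449 CPM in Acta2 stroma, and Upk3b was seen in 67.8% of CKO and 68.8% of WT cells of Wnt2 stroma. The Wnt2, Nkain4 and Prss35 list summed to 602 CPM in CKO and 382 CPM in WT within Wnt2 stroma. With 1 marker more required at every gate, the summed matrix ratio of Wnt2 stroma was 0.950. In the remaining stroma it was 0.995 as a mean of single cells. A list of genes of the embryo body (11 genes) summed to 11.1 CPM in CKO and 39.7 CPM in WT stroma, with 4 and 7 of its genes seen. The part of these differences in the matrix ratios was not tested.

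Endothelial cells carried a different matrix, in which Sparc alone made up 55.9% of matrix UMIs in CKO and 55.8% in WT. Sparc stood at 1608 CPM in CKO and 2087 CPM in WT endothelium (0.770, 0.716 to 0.829). Of 16 genes with at least 20 UMIs, 3 were at least 2-fold higher in CKO and 4 at least 2-fold lower, against 4.02% and 6.86% of all genes. The 3 higher genes had fewer than 20 UMIs in WT and 2 of the 4 lower genes fewer than 20 in CKO, so that they owed their place in the count to the library where they were high. Fn1 had 136 CPM in CKO and 327 CPM in WT (0.415, 0.329 to 0.520), Loxl2 44.5 and 91.0 CPM (0.489, 0.319 to 0.738), and Col14a1 16.4 and 91.0 CPM (0.180, 0.0935 to 0.324). Fbn2 had 1 UMI in CKO and 29 UMIs in WT (0.0297, 0.000728 to 0.179), of which 1 WT cell held 58.6%. The basement membrane genes Col4a1, Col4a2, Lamb1, Lamc1 and Nid1 had ratios from 0.544 to 0.840, and the interval of Col4a1 alone lay below 1 (0.646 to 0.913).

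The 3 higher genes in endothelium were Col1a2, Postn and Col26a1. Col1a2 had 64.3 CPM in CKO and 17.6 CPM in WT (3.65, 1.97 to 7.27), Postn 22.2 and 4.07 CPM (5.46, 1.61 to 28.8), and Col26a1 31.6 CPM from 27 UMIs in CKO and 1.36 CPM from 1 UMI in WT (23.3, 3.84 to 953). In CKO stroma Col1a2 and Postn stood at 31.1 and 61.0 times these endothelial levels. Hapln1 had 180 CPM in CKO and 109 CPM in WT endothelium (1.66, 1.26 to 2.20). Its ratio was 1.20 (0.867 to 1.68) in Xist-positive and 3.02 (1.39 to 7.25) in Y-positive endothelial cells. The endothelial cells of the libraries differed in depth, with medians of 23866 UMIs in CKO and 13027 UMIs in WT. The stromal marker list summed to 91.3 CPM in CKO and 109 CPM in WT endothelium, with 8 and 3 of 12 genes seen, and Pdgfrb was at 0 in both libraries. The trophoblast list summed to 72.5 and 288 CPM, from 1 of its 8 genes, Plac1. The parts of depth and of Plac1-positive cells in these ratios were not tested.

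Blood cells had little matrix RNA, 260.3 CPM in CKO and 108 CPM in WT summed over the whole set. Of 22 genes with at least 20 UMIs in blood, 15 were at least 2-fold higher in CKO and none lower, against 8.53% and 6.44% of all genes. Of the 15, 6 had fewer than 20 UMIs in WT and entered the count only through CKO or through both libraries summed. Col1a1 had 15.3 CPM in CKO and 3.94 CPM in WT (3.88, 2.93 to 5.21), Col1a2 15.9 and 3.23 CPM, Col3a1 12.6 and 2.71 CPM, Lum 12.7 and 3.36 CPM, Vcan 3.50 and 0.646 CPM, and Postn 11.8 and 2.90 CPM (4.05). Hapln1 had 66.4 CPM in CKO and 25.2 CPM in WT (2.64, 2.35 to 2.97), Sparc 55.5 and 25.9 CPM (2.14), and Fn1 19.4 and 17.4 CPM (1.11, 0.946 to 1.31). Nid1 had 5.66 and 2.45 CPM (2.31) and Col4a2 4.55 and 1.94 CPM (2.35). Summed over all genes of the set, the ratio was 2.55 in the progenitor gate, 2.66 in the erythroid gate and 2.83 in the megakaryocyte gate, where WT had 98 matrix UMIs in all. The macrophage gate had 11 CKO cells and a ratio of 2.59, and no direction is read from it, since Smarcc1 there stood at 59.9 CPM in CKO and 81.5 CPM in WT, with an interval that held 1 (0.735, 0.472 to 1.11). At least 2-fold higher were 11 of 18 genes in the progenitor gate (7.69% of all genes) and 9 of 13 in the erythroid gate (6.64%), of which 5 in each gate had fewer than 20 UMIs in WT. None was 2-fold lower in either gate, where 3.77% and 6.6% of all genes were.

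The makeup of these UMIs differed between blood gates. In the erythroid gate, Col1a1, Col1a2 and Col3a1 made up 12.2%, 11.6% and 10.2% of matrix UMIs in CKO and 10.0%, 7.43% and 5.20% in WT, and Hapln1 2.20% and 1.49%. In stroma the same genes made up 18.8%, 11.3%, 9.98% and 0.632% in CKO, and 18.4%, 10.3%, 10.1% and 0.787% in WT. In the progenitor gate Hapln1 made up 33.4% in CKO and 28.4% in WT, and in the megakaryocyte gate 34.2% and 28.6%. Hapln1 (chr13:89539796-89611652, plus strand) and Vcan (chr13:89655312-89742509, minus strand) neighbour each other, and the Vcan to Hapln1 UMI ratio was 1.61 in CKO and 1.58 in WT stroma. In the progenitor gate this ratio was 0.0437 in CKO and 0.0126 in WT, so that Hapln1 there was not in the proportion found in stroma. Hapln1 stood at 138 CPM in CKO and 45.8 CPM in WT progenitor-gate cells, against 2.71 and 0.690 CPM in erythroid-gate cells of the same libraries. Nid1 and Col5a1 also departed from stromal proportions in erythroid-gate cells, with 7.32% and 2.93% of matrix UMIs in CKO and 5.95% and 11.5% in WT. Exons of both overlap a gene on the opposite strand (Gm48682 for Nid1, 2810430I11Rik and Gm13372 for Col5a1), as do those of Mfap4 (Mapk7), Fn1 (Apol7d) and Col9a3 (Tcfl5), and exons of Col3a1 and Loxl2 overlap Gm47302 and Mir6950 on the same strand. The submitters name Cell Ranger without its settings, and how reads in these overlaps were assigned was not checked.

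**Figure D5:**
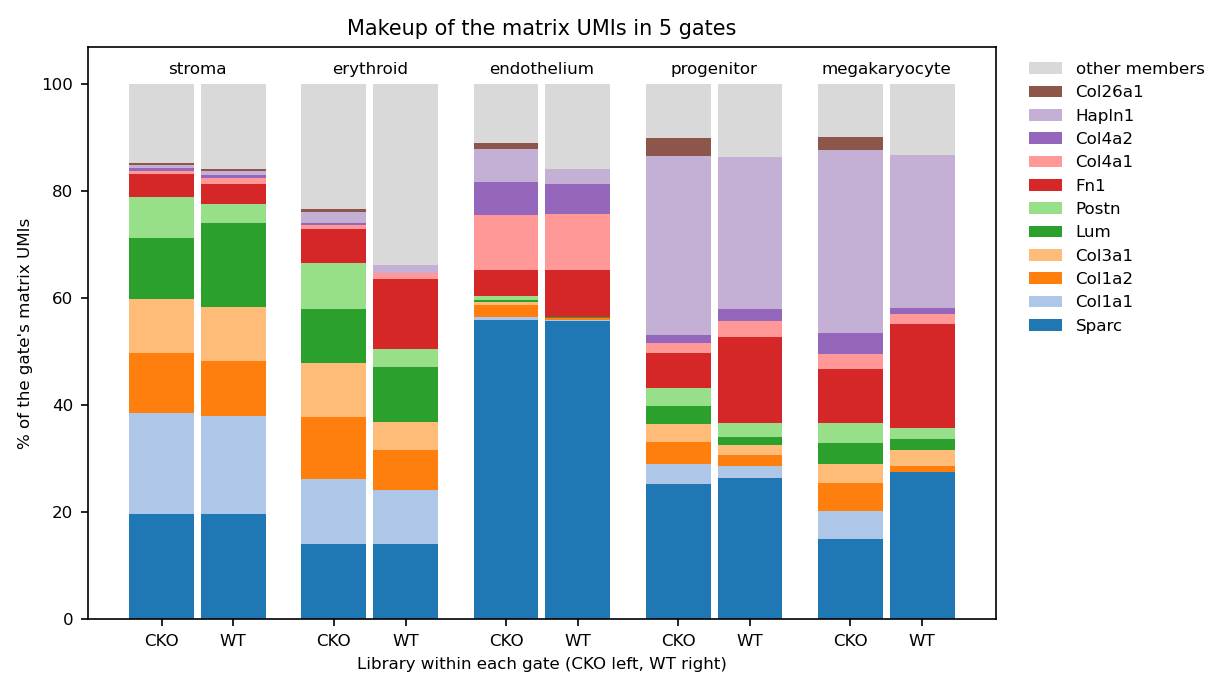
Share of each gate's matrix UMIs held by 11 of the genes, with the other members in grey, CKO left of WT, in 5 gates. Type I and III collagen, Lum and Sparc make up most of the stromal bars, Sparc and type IV collagen the endothelial bars, and Hapln1 about as large a share as Sparc or larger in the progenitor and megakaryocyte bars.

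Beside the collagens in blood, the stromal marker list summed to 7.50 CPM (6.29 to 8.87) in CKO and 5.23 CPM (4.15 to 6.50) in WT blood, with 11 and 10 of 12 genes seen and Bnc2 at 0 in both. Within the progenitor gate it summed to 6.74 and 8.22 CPM. The smooth muscle list summed to 27.3 and 11.2 CPM, with 7 and 5 of 8 genes seen and Myocd at 0 in both, and the Wnt2, Nkain4 and Prss35 list to 2.44 and 0.323 CPM. Over all cells the summed matrix level was 4880 CPM in CKO and 3796 CPM in WT (1.29). Taken over all cells, Col26a1, Mfap4 and Postn were at least 2-fold higher in CKO (6.45% of all genes) and Col14a1 lower (7.01%). The erythroid-gate level of 123 CPM in CKO and 46.4 CPM in WT can hold RNA free in the suspension, and how much of the blood difference it holds was not tested. Without the erythroid-gate cells the summed ratio in blood was 2.72.

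Col26a1 stood apart among the genes counted in blood, with 125 UMIs in CKO and 0 UMIs in WT. Measured against a floor of 3 counts over WT blood, 0.194 CPM, Col26a1 was 35.8-fold higher in CKO. The lower counting limit of the ratio was 28.7. In Y-positive blood cells it had 84 UMIs in CKO (12.5 CPM), and in Xist-positive blood cells 23 UMIs (2.45 CPM). Its ratios to a floor of 3 counts were 28.1 and 5.94, with lower counting limits of 22.4 and 4.46. In the progenitor gate it had 14.2 CPM in CKO and 0 UMIs in WT, where 3 counts would make 0.432 CPM. The megakaryocyte gate had 7.49 CPM in CKO and 0 UMIs in WT (2.14-fold over the floor), from 87 and 21 cells. The erythroid gate had 0.565 CPM in CKO and 0 UMIs in WT. Col26a1 was 3.45% of matrix UMIs in CKO progenitor-gate cells and 0.370% in CKO stroma.

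The progenitor gate also differed in how many of its cells carried endothelial genes. The endothelial list (12 genes) summed to 746 CPM in CKO and 326 CPM in WT progenitor-gate cells, and 59 of 127 CKO and 39 of 172 WT cells had at least 6 of its genes. This split was chosen after the values were seen. In cells with at least 6, Hapln1 had 217 CPM in CKO and 82.7 CPM in WT, Sparc 159 and 89.1 CPM, and Col26a1 24.1 CPM in CKO and 0 UMIs in WT. In cells with fewer, Hapln1 had 72.4 and 33.6 CPM, Sparc 58.7 and 27.1 CPM, and Col26a1 6.01 CPM in CKO and 0 UMIs in WT. Of the genes with at least 20 UMIs, 9 of 15 were at least 2-fold higher in CKO in the first part (7.62% of all genes) and Nid1 lower (4.51%), and 8 of 11 were higher in the second (6.35%) and none lower (4.15%). Of the higher genes, 8 in the first part and 4 in the second had fewer than 20 UMIs in WT. The summed level was 582 CPM in CKO and 301 CPM in WT in the first part (1.93), and 272 and 115 CPM in the second (2.36). Hapln1 and Sparc were higher in the cells with more endothelial genes in both libraries, and higher in CKO within each part. Fn1 was not: it had 30.9 CPM in CKO and 54.4 CPM in WT in the first part, and 24.7 and 16.7 CPM in the second.

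Visceral endoderm had a summed level of 2099 CPM in CKO and 980 CPM in WT (2.14, 1.89 to 2.43), with Sparc at 1223 CPM in CKO and 371 CPM in WT. Of 8 genes with at least 20 UMIs, Mfap2 and Sparc were at least 2-fold higher and none lower, against 13.8% and 17.7% of all genes. Only 7 CKO cells were in this gate, and Smarcc1 stood at 96.7 CPM in these CKO cells and 38.8 CPM in WT cells, against the label, so no direction is read from it.

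The other genes of the matrix were taken from a list of 111 genes that are not members of the set. In stroma 81 had at least 20 UMIs, and their median ratio was 1.31. Of these, 12 were at least 2-fold higher in CKO and 2 lower, against 5.79% and 3.9% of all genes. Among the most abundant, Serpinh1, the collagen chaperone, had 4593 CPM in CKO and 4560 CPM in WT stroma (1.01), Ppib, a prolyl isomerase of the same pathway, 938 and 870 CPM (1.08), and P4hb, a subunit of prolyl 4-hydroxylase, 578 and 427 CPM (1.35). The catalytic subunits of that enzyme, P4ha2 and P4ha1, had 377 and 236 CPM (1.59), and 252 and 162 CPM (1.55). Fkbp10, a collagen chaperone, had 284 and 208 CPM (1.36), and Plod2, a lysyl hydroxylase, 234 and 222 CPM (1.06). Cyr61, a matricellular protein, had 475 and 276 CPM (1.72), and Gpc3, a membrane glypican, 294 and 350 CPM (0.840). None of the 22 processing genes with enough UMIs passed 2-fold in either direction, where 5.79% of all genes were higher and 3.9% lower.

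Past 2-fold in stroma with at least 100 UMIs, the largest ratios belonged to Col16a1, a fibril-associated collagen (26.4 CPM in CKO, 7.87 CPM in WT, 3.36), Col4a6, a minor type IV collagen chain (20.3 and 6.16 CPM, 3.30), and Adamts1, a versican-cleaving protease (59.6 and 18.1 CPM, 3.29). Lamb2, a laminin chain (33.2 and 10.3 CPM, 3.24), Fbln2, a fibulin (31.2 and 12.3 CPM, 2.54), and Thbs1, thrombospondin 1 (27.0 and 11.8 CPM, 2.29), followed. Col18a1, the abundant basement membrane collagen that yields endostatin, had 290 CPM in CKO and 144 CPM in WT (2.01, 1.85 to 2.18). The 2 lower genes, Lama2 and Prelp, had fewer than 100 UMIs. In endothelium 3 of 34 were higher (4.02% of all genes) and 3 lower (6.86%). In blood 14 of 47 were higher (8.53% of all genes) and 3 lower (6.44%).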

How the data were processed

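Per the labels, 10x Genomics 5′ libraries of 1 CKO and 1 WT yolk sac preparation were sequenced on a HiSeq2500. The submitters' processing notes name Cell Ranger, Seurat and GRCm38, with no role or order. The deposited matrices hold whole-number UMI counts per gene and barcode, made by the authors, and these counts were used as deposited. A barcode was kept if it had 500 genes or more, no more than 10% of its UMIs from mitochondrial genes and no doublet call from Scrublet (expected rate 1%); 6 CKO and 3 WT doublets and 18 and 28 barcodes over the mitochondrial limit were left out. Barcodes had 6328 to 96471 UMIs in CKO and 6054 to 114332 in WT.

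Gates needed at least 4 of 12 stromal, 6 of 12 endothelial, 4 of 16 blood or 4 of 10 visceral endoderm markers with a UMI, and 6 CKO and 1 WT cells that passed several, with 57 and 60 that passed none, were left out of the gates. Within stroma, 2 of 3 Wnt2 markers came first, then 4 of 8 smooth muscle and 2 of 6 mesothelial markers. Blood cells took the list (progenitor, erythroid, megakaryocyte or macrophage) with the highest share of markers seen, if at least 50%. The numbers of markers were set on the files. UMIs were summed per library and gate, with exact Poisson intervals for CPM and a conditional exact binomial interval for the ratio of CKO over WT (95%). A ratio against 0 uses a floor of 3 counts over the gate. No test was made, and ratios were checked on simulated data. Genes needed 20 UMIs over both libraries, and called means past 2-fold. Genes given with levels were the 3 most abundant of each role group, those past 2-fold with at least 100 UMIs, and, of the other matrix genes, the 10 most abundant and the 6 largest ratios in each direction; the remaining values named were chosen after they were seen. The members, gene lists and markers were chosen with earlier results of these data known. Gene positions are from GENCODE M21 and promoters from RefSeq, GRCm38.p6. Software was scanpy 1.11.5, pandas 2.3.3, scipy 1.17.1, numpy 2.4.6 and matplotlib 3.10.9 under Python 3.11.15, with seed 0.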

Additional observations from a re-analysis of the deposited data

Results flagged for a closer look

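Some genes lay on opposite sides of a ratio of 1 in 2 cell gates, with both counting intervals clear of 1 and at least 1 of the ratios past 2-fold. With 1 library per genotype the difference between gates was not tested in any of these cases. Between stroma and endothelium, Fn1 had CKO over WT ratios of 1.40 and 0.415, and Loxl2 had 1.25 and 0.489. Between stroma and blood, Nid1 had 0.781 and 2.31, Lum 0.910 and 3.77, and Dcn 0.910 and 2.65. These were not common to both sex parts. The stromal ratios of Lum and Dcn were 1.00 and 1.05 in Y-positive cells, and that of Nid1 was 0.992 in Xist-positive cells. In Y-positive blood cells the Dcn ratio was 1.15 (0.364 to 3.72). The part of free RNA in the blood ratios was not tested. Between endothelium and blood, Sparc had 0.770 and 2.14, and the sum of all 35 genes had 0.770 and 2.42. Endothelial depth differed between the libraries, with medians of 23866 UMIs in CKO and 13027 UMIs in WT, and the part of this in the endothelial ratios was not tested.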

How the results depend on the processing

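The summed stromal ratio of 1.23 was 1.21 with 1 marker more at each gate, 1.25 under a filter of 2000 genes and 5% mitochondrial UMIs, 1.25 as a mean of single cells, 1.27 thinned to 10000 UMIs, 1.17 in Xist-positive and 1.27 in Y-positive cells, and 1.09 with subtypes weighted equally. In Wnt2, Acta2 and Upk stroma it was 0.950, 0.701 and 1.37 with 1 marker more, so that Wnt2 stroma turned round. As a mean of single cells it was 1.15 in Wnt2 stroma, 1.16 in Upk stroma and 0.995 in the remaining stroma, which turned round. The summed ratio in blood was 2.06 with 1 marker fewer, 2.20 as a mean of single cells, 2.24 thinned, 2.02 in Xist-positive and 2.80 in Y-positive cells, and 2.72 without erythroid-gate cells, an alternative chosen after seeing the data. In endothelium it was 0.854 in Xist-positive cells.

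The 2 stromal genes at least 2-fold higher became 5 as a mean of single cells and 5 when thinned, and 1 with subtypes weighted equally, and the 1 lower gene became 0 in Xist-positive cells. In endothelium the 3 higher genes became 1 in Xist-positive cells, 6 with a minimum of 5 UMIs and 0 with a minimum of 100 UMIs, and the 4 lower genes became 2 with 1 marker fewer, 2 thinned, 1 in Xist-positive cells and 2 with a minimum of 100 UMIs. In blood the 15 higher genes became 23 with a minimum of 5 UMIs, and the 0 lower genes became 1 with 1 marker fewer, as a mean of single cells, in Xist-positive cells and with a minimum of 5 UMIs. Of the other matrix genes in stroma, the 12 higher became 7 in Xist-positive cells, and the 2 lower became 5 as a mean of single cells, 0 thinned, 1 in Xist-positive cells, 5 in Y-positive cells, 5 with a minimum of 5 UMIs, 0 with a minimum of 100 UMIs and 1 with 1 CPM added. Among the single genes recomputed under every setting, which were not all members, Lum in stroma came to 1.00 (0.970 to 1.04) in Y-positive cells, against 0.910 in all stromal cells. Fbn2 in endothelium gave no ratio in Y-positive cells, with 0 UMIs in CKO and 1 UMI in WT, nor with 1 marker fewer. Hapln1 in endothelium ran from 1.20 to 3.02, and the ratio of Col26a1 in blood to the floor from 5.94 to 116. The causes were not tested, apart from the counts under other UMI minimums, where more or fewer genes enter. Keeping doublets, dropping the cell filter, and a total without globin and mitochondrial genes moved none of these. No paired analysis was possible because each genotype has 1 library and no fit was made.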

Other observations

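Several matrix genes lie beside another member in the genome with no protein-coding gene between them. They are Col3a1 and Col5a2 on chromosome 1, Col4a1 and Col4a2 on chromosome 8, Col6a2 and Col6a1 on chromosome 10, Dcn and Lum on chromosome 10, and Hapln1 and Vcan on chromosome 13. Neighbours with the same ratio of CKO over WT over stroma as a whole were Dcn and Lum, at 0.910 each. Vcan and Hapln1 had 1.01 and 0.990 in stroma, yet in blood they had 3.50 and 66.4 CPM in CKO and 0.646 and 25.2 CPM in WT. Col3a1 to Col5a2 was 5.30 in CKO and 6.97 in WT stroma, whereas in endothelium Col5a2 had 32 UMIs in CKO and 36 UMIs in WT, against 16 and 0 UMIs of Col3a1.

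Acta2 stroma was the gate with the highest Bgn and Vcan. Bgn, an X-linked gene, had 220 CPM in CKO and 197 CPM in WT there, against 45.5 and 67.2 CPM in Wnt2 stroma, and Vcan had 290 and 267 CPM, against 132 and 119 CPM. Upk stroma was the gate with the highest Col11a1, at 230 CPM in CKO and 200 CPM in WT, the highest Hapln1, at 194 and 154 CPM, and the highest Tnc, at 79.5 and 68.8 CPM. These orders of the gates held in both libraries. Across stromal cells Bgn and Col1a1 had a Spearman rho of -0.46 in CKO and 0.21 in WT, over 267 and 245 cells, so the sign was not common to both libraries.

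Postn and Sparc had a rho of 0.76 over CKO and 0.61 over WT stromal cells, and Lum and Sparc 0.62 in each. These values are descriptions of cells that share a library and differ in depth.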
